A study of Mus musculus with 24 samples.

Results

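Base excision repair and the repair of single-strand breaks were followed in irradiated mouse astrocytes through 10 genes, which were *Ogg1*, *Neil1*, *Neil3*, *Ung*, *Apex1*, *Parp1*, *Parp2*, *Xrcc1*, *Polb* and *Lig3*. They were chosen by name, and their rows were taken from count tables that list 49315 genes. The cells were wild type primary astrocytes from the brain cortex of C57BL/6J embryos shortly before birth, the cells of the embryos of one pregnant mouse being pooled. Cells in passage 1 were exposed to 0 Gy (mock irradiation), 0.1 Gy or 2 Gy X-rays and harvested 6 h or 24 h later, which gives 6 conditions of 4 libraries each. Within a condition the libraries carry the numbers 1 to 4 and were described by the submitters as biological repeats. The cultures were grown from mixed cortical tissue, and the data are RNA levels of whole cultures, in which fewer cells of a type and less RNA per cell cannot be told apart.

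Base excision repair removes small chemical damage from single DNA bases, such as oxidation, deamination or the loss of a base, all of which ionizing radiation and the oxygen radicals it forms can cause. A DNA glycosylase cuts out the damaged base, an endonuclease opens the backbone at the empty site, a polymerase fills the gap and a ligase closes the nick. The poly(ADP-ribose) polymerases sense single-strand breaks, whether they arise directly or as intermediates of this pathway, and the scaffold protein XRCC1 gathers the enzymes that close them. Most of these proteins are made in dividing and resting cells alike, whereas a longer repair patch borrows the polymerases and the ligase of DNA replication.

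Total counts per library ranged from 14742855 to 38194800. The 12 astrocyte markers were all detected, with a summed level of 2851 to 3978 CPM (reads scaled to a common library size, after TMM normalization over the 24 libraries). The 12 markers of fibroblasts and vessels summed to 4238 to 8753 CPM, those of the oligodendrocyte lineage to 411 to 901 CPM and those of neurons to 609 to 733 CPM in the 6 libraries with the number 2 and to 408 to 584 CPM in the other 18. Depending on the condition, 3 to 6 of the 12 neuron markers lay under 1 CPM in all its libraries. The same was so for 2 or 3 markers of each of the other 2 lists. Microglia markers stood at 253 to 309 CPM in the libraries with the number 2 and at 1688 to 3035 CPM in the other 18 libraries. The libraries with the number 2 therefore stand apart in every condition. The number pairs libraries within a time, since libraries of the same number departed from their condition means in the same way.

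At 24 h, fold changes also moved with base composition. Across the genes tested, the log2 fold change of 2 Gy against 0 Gy at 24 h had a Pearson r of 0.561 with the GC content of the gene in the fit with the replicate block, a model term that compares libraries of the same number. At 6 h that r was -0.371. Genes are not independent replicates, and these values describe the libraries only. Among the members, *Neil3* had the lowest GC content of the transcribed sequence (41.5%) and *Xrcc1* the highest (59.3%).

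The glycosylase genes lie on 4 chromosomes of the mouse genome build GRCm38. *Ogg1* (ENSMUSG00000030271) is at chr6:113326972-113335068 on the plus strand, *Neil1* (ENSMUSG00000032298) at chr9:57142800-57148305 and *Neil3* (ENSMUSG00000039396) at chr8:53586867-53639065, both on the minus strand, and *Ung* (ENSMUSG00000029591) at chr5:114130386-114139323 on the plus strand. Their spans run from 5506 bases for *Neil1*, in 10 exons once overlapping exons are merged, to 52199 bases for *Neil3*, in 14 exons. All 4 encode proteins, and their counts cover exons including the untranslated regions.

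The sequence just before and after the start of transcription is shown for *Neil3* and *Ung*, which had the largest log2 fold changes after 2 Gy, and for *Neil1*, a glycosylase of the same family as *Neil3* whose level was not lower at 24 h. Each window holds the 250 bases before the start and the first 50 bases of the transcript, from RefSeq on GRCm38.p6, and is written 5′ to 3′ on the strand of the gene. The windows are chr8:53639016-53639315 (minus strand) for *Neil3*, chr5:114130185-114130484 (plus strand) for *Ung* and chr9:57148256-57148555 (minus strand) for *Neil1*. Capitals mark GC boxes, here the letters GGGCGG on either strand.
Neil3: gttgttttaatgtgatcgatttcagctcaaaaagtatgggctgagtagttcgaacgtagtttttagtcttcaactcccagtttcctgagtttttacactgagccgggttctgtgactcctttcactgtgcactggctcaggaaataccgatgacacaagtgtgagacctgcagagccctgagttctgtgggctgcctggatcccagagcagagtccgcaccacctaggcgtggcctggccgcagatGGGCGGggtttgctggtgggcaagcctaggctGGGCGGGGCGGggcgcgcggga
Ung: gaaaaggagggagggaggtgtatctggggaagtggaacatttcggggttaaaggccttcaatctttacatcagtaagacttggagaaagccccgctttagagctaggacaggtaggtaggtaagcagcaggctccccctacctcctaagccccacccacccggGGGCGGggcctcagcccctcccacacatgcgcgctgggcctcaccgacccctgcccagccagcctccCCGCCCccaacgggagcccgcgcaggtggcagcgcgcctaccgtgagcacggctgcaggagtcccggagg
Neil1: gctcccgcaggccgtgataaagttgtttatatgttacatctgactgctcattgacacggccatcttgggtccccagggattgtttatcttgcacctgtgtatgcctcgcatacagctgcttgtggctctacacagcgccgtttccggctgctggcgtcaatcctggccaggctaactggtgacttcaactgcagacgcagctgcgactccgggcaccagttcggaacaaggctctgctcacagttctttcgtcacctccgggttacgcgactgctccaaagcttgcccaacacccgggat
The GC box was found 3 times in the *Neil3* window, where the last 2 matches overlap each other, and 2 times in the *Ung* window, and was not found in that of *Neil1*. Windows were given for 9 of the 10 members (*Polb* had none), and 7 of these 9 held a GC box, against 35.7% of the 32851 windows of this length. The core of the E2F site, searched as TTCCCGC and also as TTGGCGC and as TTCGCGC and as TTGCCGC on either strand, was in 1 of the 9 windows, that of *Apex1*, and in 9.6% of all windows. CCAAT, on either strand, was in 3 of the 9 and in 37.4% of all, and TTTGAA, the core of the cell cycle homology region, was in none of the 9 and in 17.9% of all. The E-box, CACGTG, was in 4 of the 9 and in 7.2% of all. The motifs were chosen with the results known, and such matches are letters in these windows, not proven sites.

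In mock-irradiated cells the members fell into a band of abundant and a band of rare transcripts. Compared per kilobase of exon, *Apex1*, which encodes the main endonuclease for empty sites, and *Parp1*, the major break sensor, were highest at 6 h, with 18.7 ± 2.85 and 16.2 ± 3.56 CPM per kb (mean ± SD, n = 4). *Ogg1* and *Parp2* followed with 8.89 ± 2.28 and 8.74 ± 1.53 CPM per kb. *Neil1*, *Lig3*, *Polb* and *Xrcc1* lay close together, from 4.63 ± 1.18 down to 3.95 ± 0.55 CPM per kb.

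*Neil3* and *Ung* were the rarest, with 0.987 ± 0.0882 and 0.557 ± 0.102 CPM per kb at 6 h. At 24 h they stood at 1.00 ± 0.215 and 0.957 ± 0.324 CPM per kb and overlapped, while *Parp1* led with 15.4 ± 3.64 CPM per kb, followed by *Parp2* with 11.2 ± 1.85 and *Apex1* with 10.9 ± 1.60. Most neighbours in this order overlapped in the range of their 4 libraries. Those that did not were *Parp2* and *Neil1*, *Xrcc1* and *Neil3*, and *Neil3* and *Ung* at 6 h, and *Ogg1* and *Polb*, and *Lig3* and *Neil3*, at 24 h. Over all 24 libraries, irradiated ones included, counts ran from 22 reads for *Neil3* in 1 library to 3882 for *Parp1*, so the rare members carry the larger counting error.

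**Figure D1:**
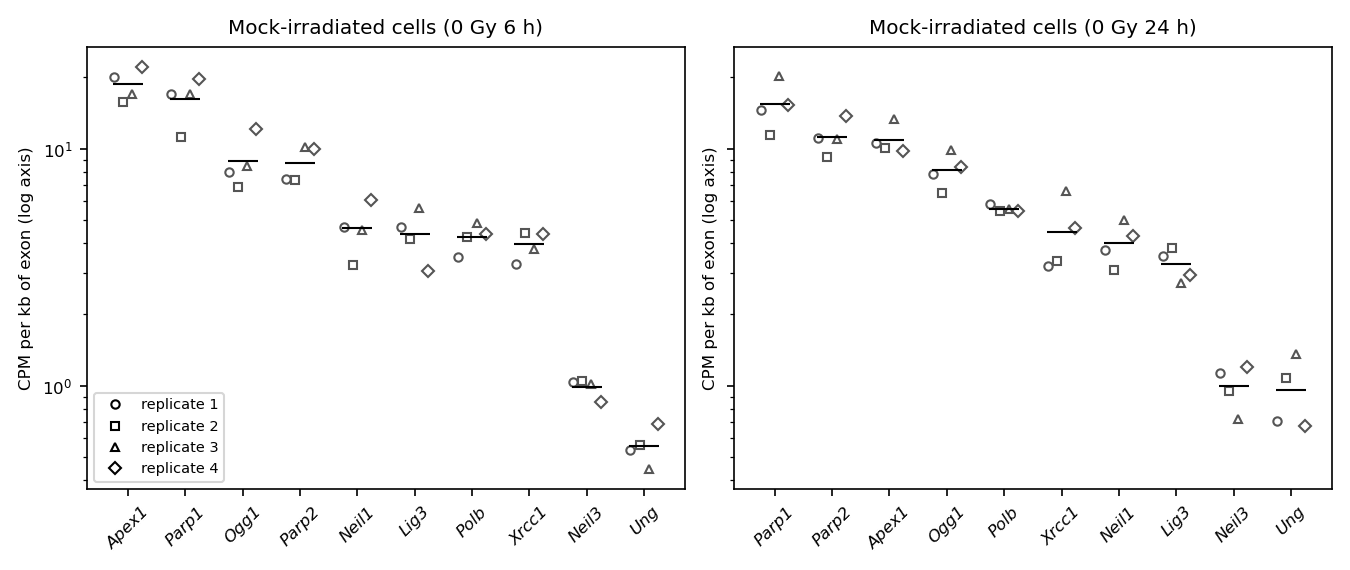
Levels of the 10 genes per kilobase of exon (CPM per kb, log axis) in mock-irradiated astrocytes at 6 h (left) and 24 h (right), in order of the mean. Open symbols are the 4 libraries, marked by replicate number, and the bar is their mean; *Neil3* and *Ung* lie near 1 CPM per kb or below, apart from the other 8 genes.

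Across the 6 comparisons of doses, no member was called by edgeR's quasi-likelihood test at a Benjamini-Hochberg adjusted p under 0.05 in the fit without the replicate block. That fit called no gene at all in these comparisons (percent called 0 in each), and unadjusted p-values under 0.05 were found for 0 members (0.1 Gy against 0 Gy at 6 h and at 24 h) or 1 member (each of the other 4 comparisons). Without the block, DESeq2's Wald test called 1 member in these 6 comparisons, *Neil3* 24 h after 2 Gy, where it called 103 of 14177 genes (2 higher and 101 lower). In the same comparisons limma voom called 0 members and no other gene. With the replicate block, *Neil3* fell 24 h after 2 Gy, which is 1 of 10 members, whereas 13.2% of all genes tested were called there, 6.69% lower and 6.53% higher. In that fit the share of members called was not above that of genes at large. The number of genes called rested on single pairs, since it went from 2100 to 143, 69 and 245 without the libraries of number 1, 2 and 4 and to 5291 without those of number 3. At 24 h after 0.1 Gy, 0 of 10 members were called with the block, against 6.84% of genes (4.5% lower and 2.34% higher), or 1107 genes, which became 21 without number 2, 16 without number 4 and 3728 without number 3, with 3 members at an unadjusted p under 0.05, and DESeq2's Wald test with the block also called 0 of 10, against 1768 of 12045 genes. At 6 h after 0.1 Gy and after 2 Gy, 0 of 10 members and 0% of genes were called by edgeR with the block, with 1 member at an unadjusted p under 0.05 in each and 0 members called by DESeq2 with the block (0 of 30183 and 67 of 13178 genes). Between 2 Gy and 0.1 Gy, 0 of 10 members were called with the block, against 0.0553% of genes at 6 h and 0% at 24 h, where DESeq2 with the block called 0 members (49 of 15005 genes) and 1 member (110 of 14819 genes).

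**Figure D2:**
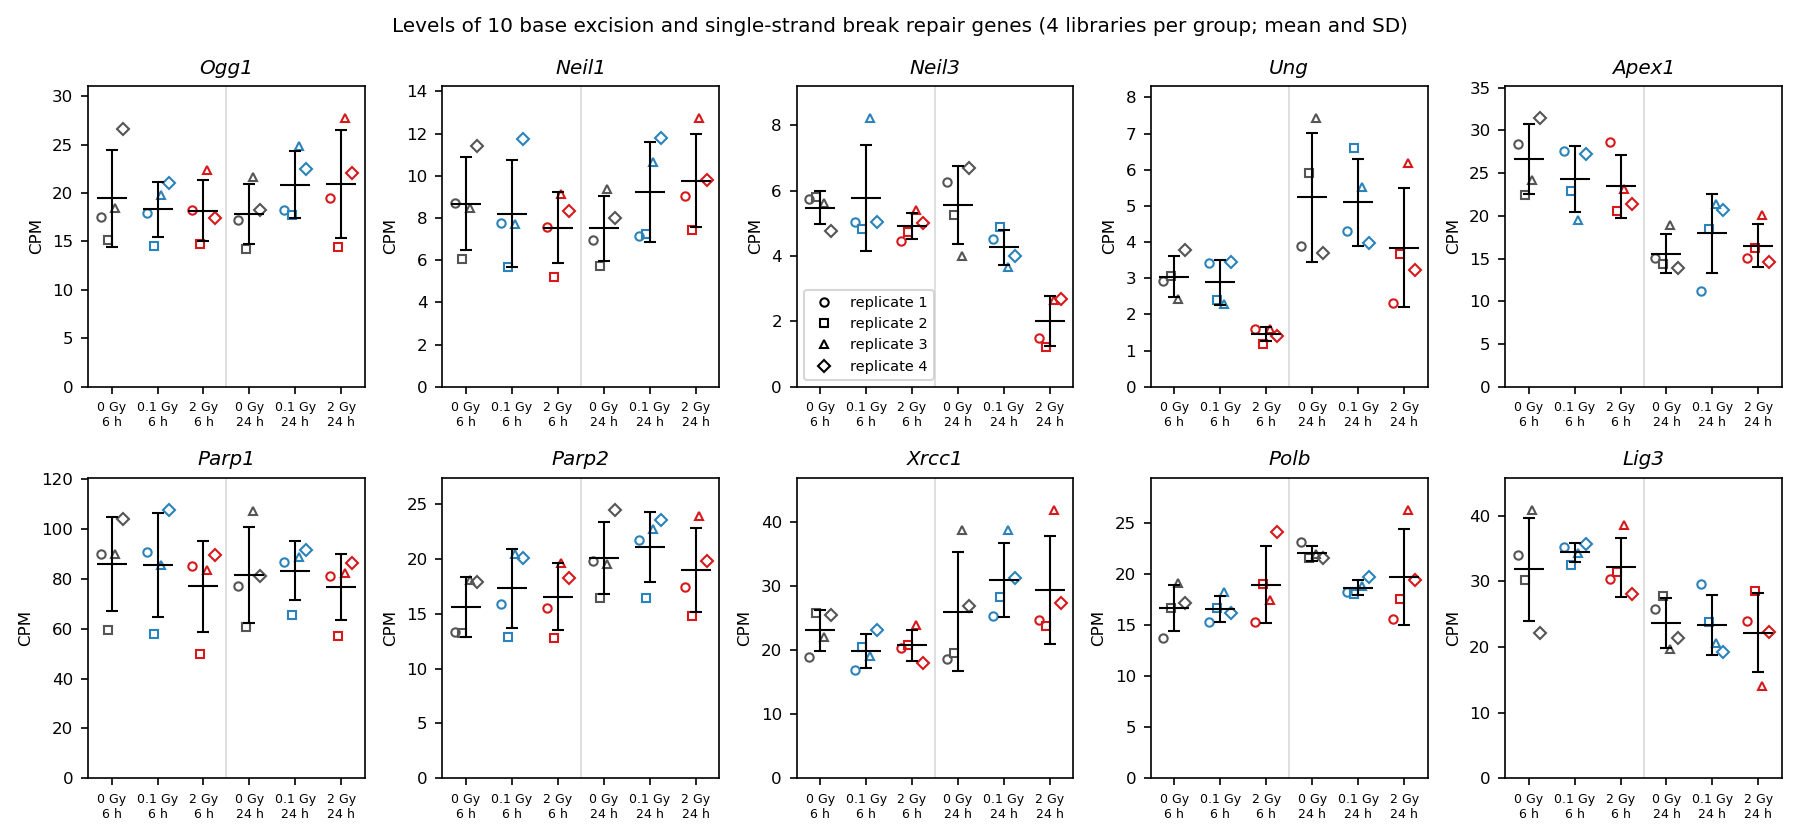
CPM of each of the 10 genes in the 24 libraries (linear axes from 0), by dose and time after exposure. Open symbols are single libraries marked by replicate number, the bar is the mean and the whiskers the SD of 4 libraries; *Ung* is low at 2 Gy and 6 h, *Neil3* is low at 2 Gy and 24 h, and *Apex1* is lower at 24 h than at 6 h.

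*Neil3*, a glycosylase of oxidized bases and of DNA crosslinks that is known for its expression in proliferating cells, was the member with the widest change. In mock-irradiated cells at 24 h its level was 6.26, 5.27, 4.01 and 6.69 CPM in libraries 1 to 4, and 24 h after 2 Gy it was 1.5, 1.20, 2.64 and 2.67 CPM. Every library of 2 Gy was lower than every library of 0 Gy, which was so for 2.01% of the genes tested. The means were 5.56 ± 1.19 and 2.00 ± 0.763 CPM (SD, n = 4), a log2 fold change of -1.47 ± 0.33 (SE) and a level 2.76-fold lower.

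In edgeR the adjusted p of this change was 0.373 without the block and 0.0143 with it, and *Neil3* was lower in 4 of 4 pairs, by log2 ratios from -2.13 to -0.60, as were 21.9% of all genes tested in sign. The call did not hold in the blocked fit when the pair with the number 1 (adjusted p = 0.0638), 2 (0.108) or 4 (0.0632) was left out, while the log2 fold change stayed between -1.74 and -1.28. When the blocked fit was corrected for the GC content and length of the genes, it gave -1.20 (adjusted p = 0.0381), with 564 of 15855 genes called. DESeq2's Wald test without the block gave -1.46 (adjusted p = 0.00515), with 103 of 14177 genes called. *Neil3* stands in a list of lowered genes that the study drew from these same libraries, so its direction there is not independent evidence.

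At the low dose and at the early time *Neil3* did not pass the test. At 24 h after 0.1 Gy the level was 4.50, 4.89, 3.67 and 3.99 CPM, with a log2 fold change of -0.39 ± 0.23 against mock irradiation (adjusted p = 0.943, or 0.139 with the block, edgeR). These 4 libraries overlapped with mock irradiation, although each was lower than its own pair, as were 16.2% of genes. With the GC and length correction the blocked value was -0.14 (adjusted p = 0.665), and without 0 Gy library 4 the value was -0.28. At 6 h *Neil3* stood at 5.75, 5.79, 5.62 and 4.75 CPM without irradiation and at 4.47, 4.74, 5.40 and 5.01 CPM after 2 Gy, a log2 fold change of -0.16 ± 0.16 (adjusted p = 1.00).

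The 2 times were compared by the interaction of 2 Gy and time. For *Neil3* it was -1.29 ± 0.35 on the log2 scale (adjusted p = 0.819 without the block) and -1.28 ± 0.29 with the block (adjusted p = 0.0388, edgeR), where 6.78% of the genes tested were called, 3.23% with a lower and 3.55% with a higher value. These 1143 genes became 0 without number 1 or 2, 138 without number 4 and 3951 without number 3. It was the only member called in the interaction by edgeR with all libraries. The blocked call was lost without the libraries of number 1 (adjusted p = 0.12), 2 (0.286) or 4 (0.0994), and with the GC and length correction (-0.91, adjusted p = 0.091). Between 2 Gy and 0.1 Gy at 24 h the 4 libraries of *Neil3* did not overlap either, as was so for 1.06% of genes in this direction. There *Neil3* differed by -1.07 ± 0.30 on the log2 scale (adjusted p = 1.00, or 0.368 with the block).

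Markers of proliferation moved with *Neil3*. The summed level of 18 such markers was 768 to 922 CPM in mock-irradiated cells at 24 h, 637 to 722 CPM after 0.1 Gy and 375 to 448 CPM after 2 Gy, without overlap between the 3 doses. With the block, 18 of 18 fell 24 h after 2 Gy, with a median log2 fold change of -0.85 against 0.004 for all genes tested. Without number 1, 2 or 4 the blocked fit called 11, 8 and 15 of them, all lower. The change of *Neil3* lay inside their range of -1.61 to -0.40. At 6 h after 2 Gy none of the 18 was called and their sum was 699 to 856 CPM, against 732 to 1003 CPM without irradiation. Of these markers, *Mki67*, *Top2a*, *Ccna2*, *Aurkb*, *Bub1* and *Pclaf* stand in the study's list of lowered genes from these libraries. Their direction is therefore not independent evidence. The part of the number of dividing cells in the level of *Neil3* was not tested.

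*Ung*, which encodes the glycosylase that removes uracil from DNA, showed its largest difference at the early time. At 6 h its level was 2.93, 3.06, 2.43 and 3.77 CPM in mock-irradiated cells, 3.42, 2.39, 2.28 and 3.44 CPM after 0.1 Gy, and 1.60, 1.19, 1.59 and 1.41 CPM after 2 Gy. Every library of 2 Gy lay below every library of the other 2 doses. The same was so for 0.707% of the genes tested against mock irradiation and for 0.448% against 0.1 Gy.

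The mean level of *Ung* at 6 h was 3.05 ± 0.556 CPM without irradiation and 1.45 ± 0.191 CPM after 2 Gy (SD, n = 4). The log2 fold change was -1.07 ± 0.22 (SE), a level 2.10-fold lower, and 4 of 4 pairs were lower, from -1.42 to -0.61, as were 8.55% of genes in sign. This difference did not pass the test over all genes, the adjusted p in edgeR being 1.00, or 0.193 with the block. Without the libraries of number 2 the blocked value was -0.95, with an adjusted p of 0.965. It passed in the blocked fit with the GC and length correction, at an adjusted p of 0.0387, where 0.721% of genes were called. Against 0.1 Gy the log2 fold change was -0.99 ± 0.22, with adjusted p-values of 1.00, 0.0958 with the block and 0.0258 with the block and the correction. The corrected fit called 110 of 16238 genes there.

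At 24 h the levels of *Ung* overlapped between the doses. They were 3.88, 5.92, 7.42 and 3.71 CPM without irradiation, 4.30, 6.6, 5.52 and 3.99 CPM after 0.1 Gy and 2.32, 3.66, 6.17 and 3.23 CPM after 2 Gy. Each library of 2 Gy was lower than its own pair, as were 21.9% of genes, the log2 fold change being -0.44 ± 0.35 (adjusted p = 0.94, or 0.086 with the block, edgeR). Leaving out 1 library moved it from -0.75 (without 2 Gy library 3) to -0.24 (without 0 Gy library 3), with -0.28 without 2 Gy library 1. The blocked fit without number 3 called *Ung* (-0.53, adjusted p = 0.0301), as it did 5291 of 15986 genes. The interaction of 2 Gy and time was 0.63 ± 0.42 for *Ung* (adjusted p = 0.819, or 0.124 with the block), so a difference between the times was not shown. Without 2 Gy library 3 at 24 h it was 0.31. Without irradiation *Ung* was higher at 24 h than at 6 h by 0.76 ± 0.29 on the log2 scale, with an adjusted p of 0.14.

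*Ogg1* and *Neil1*, which encode glycosylases for oxidized purines and for oxidized pyrimidines and ring-opened purines, were not called in any comparison by edgeR with or without the block when all libraries were used. *Neil1* stood at 6.97, 5.73, 9.37 and 8.0 CPM without irradiation at 24 h and at 9.06, 7.45, 12.7 and 9.80 CPM after 2 Gy. It was higher in 4 of 4 pairs, by log2 ratios of 0.29 to 0.44, and its log2 fold change of 0.38 ± 0.23 had adjusted p-values of 0.94 and, with the block, 0.0554. It was 0.24 without 2 Gy library 3. With the GC and length correction the blocked value was 0.13, with an adjusted p of 0.493. Without the libraries of number 3 the blocked fit called *Neil1* (0.36, adjusted p = 0.0349), in a fit that called 5291 of 15986 genes.

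*Ogg1* was likewise higher in 4 of 4 pairs 24 h after 2 Gy, with a log2 fold change of 0.23 ± 0.22 and a blocked adjusted p of 0.172. Its mean level lay between 17.8 and 20.9 CPM in the 6 conditions. Of all genes tested, 20% were higher in 4 of 4 pairs in this comparison. *Ogg1* shares 232 bases of exon with *Camk1* on the other strand, and the use of strand in the counting was not given in the sources used here, so its reads could not be told apart from those of *Camk1* in that stretch.

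**Figure D3:**
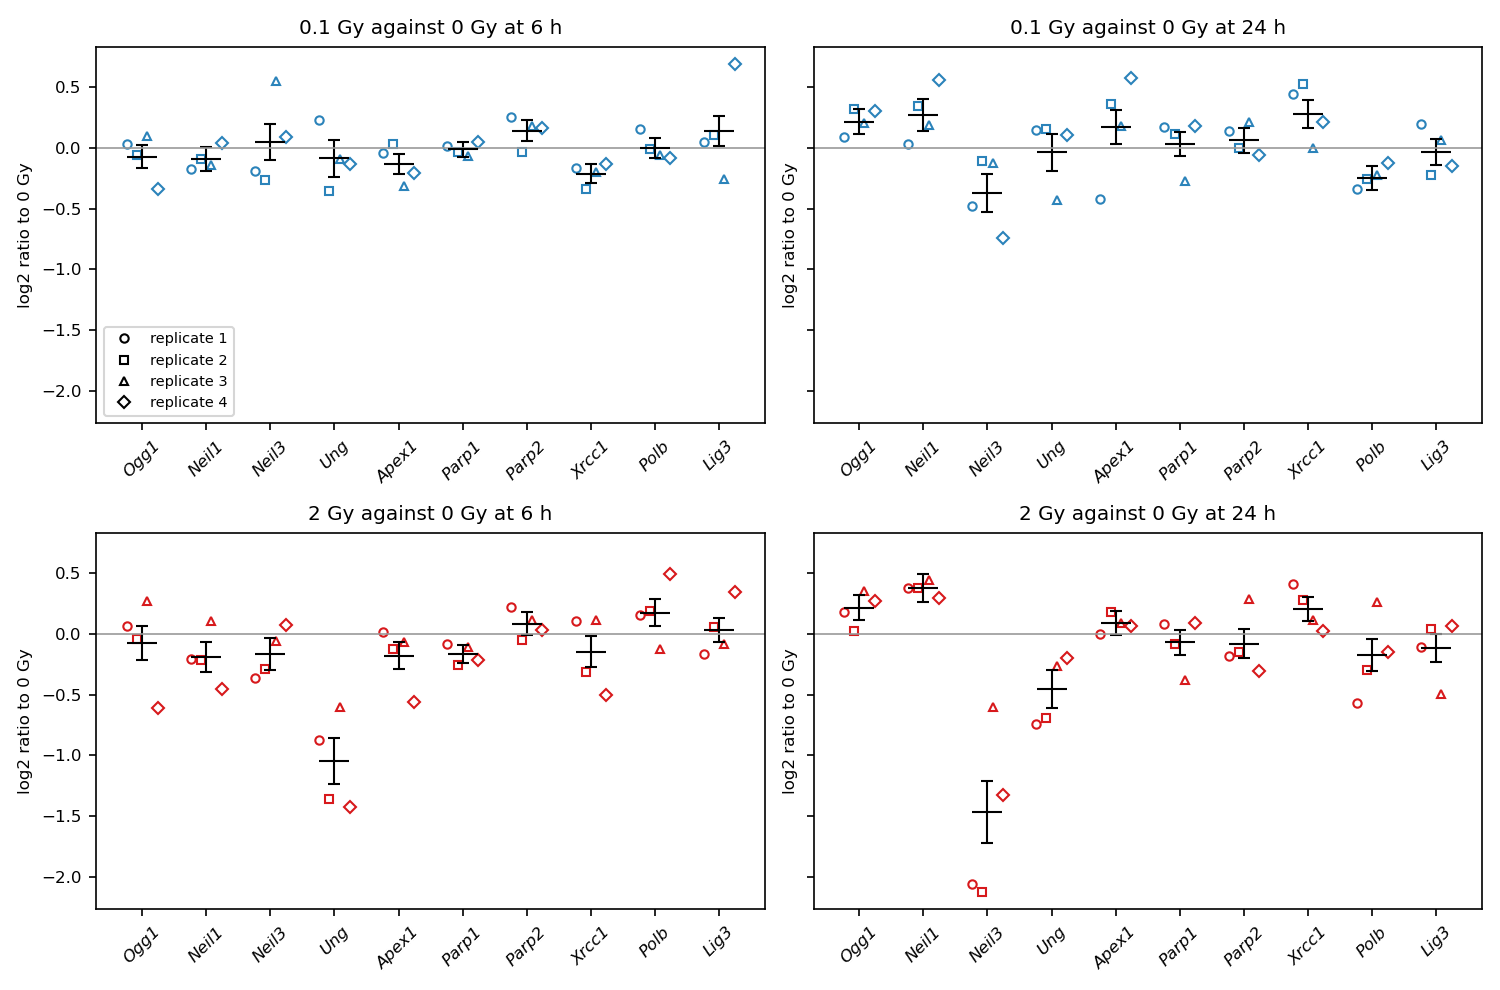
Log2 ratio of each irradiated library to the mock-irradiated library of the same number and time, for the 10 genes (open symbols marked by replicate number), with the log2 fold change ± SE of the fit with the replicate block (bar and whiskers). *Ung* lies below 0 in all 4 pairs 6 h after 2 Gy and *Neil3* in all 4 pairs 24 h after 2 Gy, where *Neil1* lies above 0 in all 4.

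*Apex1* (ENSMUSG00000035960, chr14:50924968-50927139, plus strand) changed with time in culture. In mock-irradiated cells it stood at 28.4, 22.4, 24.2 and 31.4 CPM at 6 h and at 15, 14.4, 18.9 and 13.9 CPM at 24 h. The libraries of the 2 times did not overlap, as was so for 7.44% of genes in this direction. *Apex1* fell by 0.79 ± 0.17 on the log2 scale (adjusted p = 0.027, edgeR without the block) and was the only member called between the times. That is 1 of 10, against 6.7% of the genes tested, of which 3.46% were lower and 3.24% higher at 24 h. With the block 1 of 10 was called as well, against 15.3% of genes (8.02% lower and 7.26% higher). These 2428 genes became 595, 1123 and 756 without number 1, 2 and 4, where 0 members were called, and 7192 without number 3.

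The call for *Apex1* was lost when any 1 of 6 of the 8 libraries was left out (adjusted p from 0.0589 to 0.114), and it held without library 2 at 6 h or library 3 at 24 h. *Apex1* shares 877 of its 1422 exon bases with *Pip4p1* on the other strand. *Pip4p1* itself went from 55.1 ± 10.9 CPM at 6 h to 36.6 ± 5.92 CPM at 24 h, so without knowledge of strand the reads of these genes could not be told apart. Neither dose gave a difference in *Apex1* that passed the test. After 2 Gy its log2 fold change was -0.18 ± 0.16 at 6 h and 0.09 ± 0.18 at 24 h, with adjusted p-values of 1.00 and 0.949.

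*Parp1* (ENSMUSG00000026496, chr1:180568924-180601254, plus strand), whose product makes most of the poly(ADP-ribose) at breaks, differed more between replicate numbers than between doses. It stood at 49.7 to 65.6 CPM in the 6 libraries with the number 2 and at 77.0 to 108 CPM in the other 18. Its means over the 6 conditions lay between 76.8 and 85.8 CPM. The log2 fold change after 2 Gy was -0.16 ± 0.22 at 6 h and -0.08 ± 0.20 at 24 h, and after 0.1 Gy -0.01 ± 0.21 and 0.02 ± 0.18. None of these passed the test, the lowest blocked adjusted p being 0.672 after 2 Gy at 24 h and 0.682 at 6 h.

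The libraries in which *Parp1* was low are those in which the microglia markers were low and the sum of the neuron markers high, and the part of either in the level of *Parp1* was not tested. *Parp2* (ENSMUSG00000036023, chr14:50807946-50821300, plus strand), which encodes the second sensor of breaks, was also lowest in the libraries with the number 2. At 6 h these held 12.8 to 13.2 CPM against 13.3 to 20.5 CPM in the others, and at 24 h 14.8 to 16.4 against 17.4 to 24.5 CPM. *Parp2* was higher at 24 h than at 6 h without irradiation by 0.35 ± 0.19 on the log2 scale, which did not pass the test (adjusted p = 0.286). Its log2 fold changes against mock irradiation lay between -0.08 and 0.15 in the 4 comparisons.

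**Figure D4:**
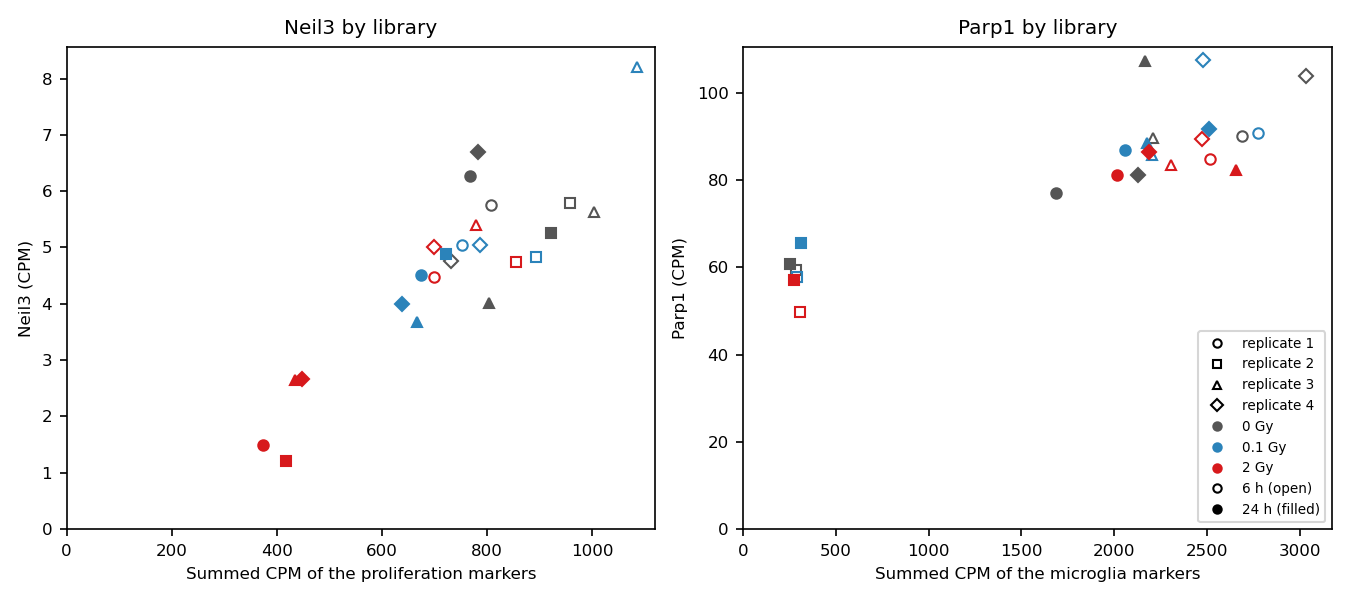
*Neil3* (CPM) against the summed CPM of 18 proliferation markers (left) and *Parp1* (CPM) against the summed CPM of 12 microglia markers (right), 1 symbol per library, coloured by dose and filled at 24 h. The 4 libraries of 2 Gy at 24 h are lowest on both axes of the left plot, and the 6 libraries with the number 2 are lowest on both axes of the right plot.

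*Xrcc1* (ENSMUSG00000051768, chr7:24546289-24573440, plus strand) encodes the scaffold on which the polymerase and the ligase assemble. After 0.1 Gy it stood at 16.8, 20.4, 19.1 and 23.2 CPM at 6 h, each below its mock-irradiated pair at 18.9, 25.7, 22.0 and 25.4 CPM. Of all genes tested there, 6.65% were lower in 4 of 4 pairs. At 24 h it stood at 25.3, 28.2, 38.7 and 31.2 CPM after 0.1 Gy and at 18.6, 19.6, 38.7 and 26.9 CPM without irradiation, higher in 4 of 4 pairs, as were 16.3% of genes. The log2 fold changes were -0.21 ± 0.15 at 6 h and 0.24 ± 0.25 at 24 h, and with the block the adjusted p-values were 0.885 and 0.125. With the GC and length correction the blocked value at 24 h was 0.09 (adjusted p = 0.606). Without a block it was 0.12 to 0.13 when 0 Gy library 1 or 2 or 0.1 Gy library 3 was left out, and 0.49 without 0 Gy library 3. The blocked fit without number 3 called it (0.39, adjusted p = 0.0215), as it did 3728 of 16060 genes. At 24 h the libraries with the number 3 held 38.7 to 41.8 CPM of *Xrcc1* at every dose and the others at most 31.2 CPM.

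*Polb* (ENSMUSG00000031536, chr8:22628126-22653435, minus strand) encodes the polymerase that fills the gap of a single base. In mock-irradiated cells at 24 h it stood at 23.1, 21.5, 21.9 and 21.5 CPM, and after 0.1 Gy at 18.2, 18, 18.8 and 19.7 CPM. The means were 22.0 ± 0.737 and 18.7 ± 0.752 CPM (SD, n = 4), and the 2 groups did not overlap, as was so for 0.544% of genes in this direction. *Polb* differed by -0.25 ± 0.11 on the log2 scale (adjusted p = 0.943, or 0.124 with the block), so it did not pass the test over all genes. With the GC and length correction the blocked value was -0.11 (adjusted p = 0.569).

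After 2 Gy at 24 h *Polb* ranged from 15.6 to 26.3 CPM and overlapped with both other doses. Without irradiation it was higher at 24 h than at 6 h in every library, as were 7.82% of genes, by 0.39 ± 0.14 on the log2 scale (adjusted p = 0.135).

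*Lig3* (ENSMUSG00000020697, chr11:82781108-82804274, plus strand) encodes the ligase that closes nicks together with XRCC1 and is the ligase of mitochondrial DNA. It stood at 34.0, 30.2, 40.9 and 22.1 CPM at 6 h and at 25.8, 27.8, 19.7 and 21.4 CPM at 24 h without irradiation, a log2 fold change of -0.44 ± 0.21 (adjusted p = 0.223). The doses differed by less than the spread between libraries. Its log2 fold changes against mock irradiation ran from -0.09 after 2 Gy at 24 h to 0.11 after 0.1 Gy at 6 h. *Lig3* shares 1826 exon bases with *Rffl* on the other strand, whose reads there could not be told apart from its own.

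Enzymes that work beside these 10 were measured as 4 further lists, and differences were found mainly among those of the long repair patch. Of 15 genes of long-patch synthesis and ligation, 9 fell and 0 rose 24 h after 2 Gy with the block, with a median log2 fold change of -0.39 against 0.004 for all genes tested. *Pole*, the catalytic subunit of polymerase epsilon, fell by 1.05 on the log2 scale (adjusted p = 0.00752), its subunit *Pole2* fell by 0.99 (0.0176), the replicative ligase *Lig1* fell by 0.53 (0.0169) and the clamp loader subunit *Rfc1* fell by 0.39 (0.0252). Without the block edgeR called 0 of the 15. In the blocked fit 1, 0 and 1 of the 15 were called lower when number 1, 2 or 4 was left out, and *Pole* held without number 1 (adjusted p = 0.0397) and 4 (0.0183) but not without number 2 (0.0689). These 4 genes also serve DNA replication. *Pole* stands in the study's list of lowered genes from these same libraries, so its direction is not independent evidence.

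The other 3 lists had few calls, near the shares of all genes called higher (6.53%) or lower (6.69%), and these calls were all lost without number 1, 2 or 4. Among 7 other DNA glycosylases, *Nthl1*, for oxidized pyrimidines, rose by 0.56 on the log2 scale 24 h after 2 Gy (adjusted p = 0.0234 with the block) and 0 fell. Among 6 genes of end processing, *Tdp2*, which frees ends from trapped topoisomerase, fell by 0.37 (0.0433). Among 6 genes of ADP-ribose metabolism *Adprhl2*, which removes ADP-ribose from serine, rose by 0.53 (0.0234). In the median, the 10 members changed by -0.08 in this comparison, the other glycosylases by 0.16, end processing by 0.09 and ADP-ribose metabolism by 0.12.

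At the other comparisons few genes of these lists were called. *Pole* fell by 0.42 on the log2 scale 24 h after 0.1 Gy (adjusted p = 0.0367 with the block, and 0.0569, 0.162 and 0.239 without number 1, 2 and 4). In the interaction of 2 Gy and time, *Pole2* (-1.05), *Pole* (-0.86) and *Tdp2* (-0.54) were called with the block, at adjusted p-values of 0.0375, 0.0382 and 0.0418. None of the 3 was called without number 1 or 2, where no gene was called at all, and without number 4 *Pole* alone was (0.0466). Between 24 h and 6 h without irradiation *Adprhl2* fell by 0.99 (adjusted p = 0.0348, edgeR without the block), and with the block *Tdp2* was called as well, in the other direction (0.61, adjusted p = 0.0488). At 6 h after either dose 0 of the 34 genes of these lists were called with or without the block.

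**Figure D5:**
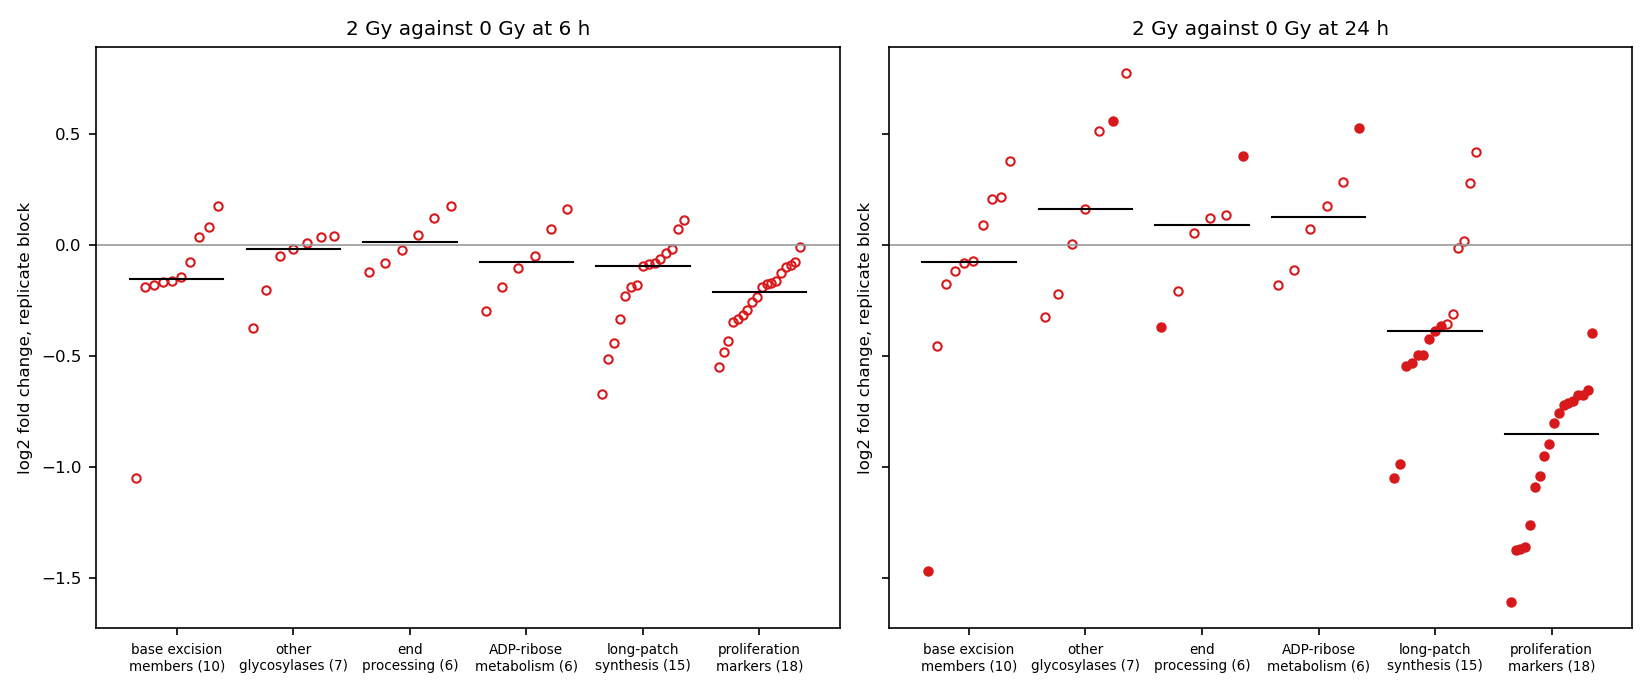
Log2 fold change of 2 Gy against 0 Gy at 6 h (left) and 24 h (right) in the fit with the replicate block, for each gene of 6 lists. Filled circles passed an adjusted p under 0.05 and bars are list medians; at 24 h 9 of 15 long-patch genes and 18 of 18 proliferation markers are filled and lie below 0, and *Neil3* is the single filled circle among the 10 members.

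As reference values, *Cdkn1a*, the p53 target that halts the cell cycle, went from 371 ± 129 to 578 ± 128 CPM at 6 h and from 321 ± 57.1 to 475 ± 86.0 CPM at 24 h between 0 Gy and 2 Gy. *Mki67*, which encodes the proliferation antigen Ki-67, went from 93.4 ± 31.3 to 84.8 ± 12.6 CPM at 6 h and from 107 ± 33.2 to 35.2 ± 12 CPM at 24 h. At 24 h its 4 libraries of 2 Gy lay below all 4 mock-irradiated libraries, as those of *Neil3* did. Of 12 p53 target genes, 7 rose and 0 fell 24 h after 2 Gy with the block, with a median log2 fold change of 0.56 (2, 1 and 3 rose without number 1, 2 and 4). Against 0 Gy at 6 h the blocked fit called no gene at all, and the median of the 12 was 0.44. Against 0.1 Gy at 6 h it called 9 genes, of which 3 were p53 targets, *Cdkn1a* (0.60, adjusted p = 0.0445), *Mdm2* (0.52, 0.0306) and *Trp53inp1* (0.71, 0.0306), all higher after 2 Gy; 1, 1, 0 and 4 of the 12 were called without number 1, 2, 3 and 4.

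The genes most like each member over the 24 libraries were sought among 17350 genes by Pearson's r of log2 CPM. Those most like *Neil3* were *E2f8* (r = 0.932), a cell cycle transcription factor, *Pole* (0.922) and *Nusap1* (0.917), a spindle protein. By ranks (Spearman's rho) their values were 0.74, 0.843 and 0.89, in the opposite order. Like *Neil3*, these genes stand in the study's list of lowered genes from the same libraries. Those most like *Parp1* were *C5ar2* (0.956), a complement receptor, *Pald1* (0.954) and *Rinl* (0.945). For *Ung* the highest values were lower, with *Ccdc120* (0.846), *Sox12* (0.812) and *Cbx1* (0.812). *Ogg1* was closest to *G6pc3* (0.943), *Neil1* to *Pnck* (0.930), *Apex1* to *Nle1* (0.935), *Parp2* to *Uimc1* (0.927), *Xrcc1* to *Med25* (0.930) and *Polb* to *Lyrm4* (0.874).

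Among themselves the members did not move as one. *Ogg1* and *Neil1* were the pair most alike, with r = 0.903 over the 24 libraries, and *Xrcc1* and *Lig3* the pair most opposed, with r = -0.773. *Neil3* had r between -0.363 and 0.382 with the other members. The libraries share replicate numbers, depth and base composition effects, and these values are descriptions.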

How the data were processed

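Poly(A) RNA of 24 astrocyte cultures was sequenced as 2 paired ends per fragment on one instrument run, and the authors deposited raw read counts per gene for each library on the mouse build mm10 (GRCm38). The aligner, the counting program and its use of strand are not given in the sources used here. Of 49315 gene identifiers, 48970 matched GENCODE release M21, from which symbols were taken.

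Genes with low counts were removed by edgeR's filterByExpr, libraries were scaled by TMM and groups were compared by edgeR's quasi-likelihood test (edgeR 4.0.16, R 4.3.3) on the 8 libraries of each comparison, or 16 for the interaction of 2 Gy and time. P-values were adjusted by Benjamini-Hochberg over all genes tested, and genes with an adjusted p under 0.05 were called. The SE of an edgeR log2 fold change was back-calculated, as its absolute value divided by the square root of the F statistic of the test. Fits were repeated with the replicate number as a block, since same-numbered libraries of a time deviated together in every dose comparison (r from 0.514 to 0.912), with splines of GC content and gene length (5 degrees of freedom), DESeq2 1.42.0 and limma voom 3.58.1. CPM were computed from the counts after TMM over the 24 libraries, with a prior count of 2 on the log2 scale. No pair of libraries of a condition agreed within sampling noise, so all were counted. The scripts were tested on simulated data.

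The 10 members were all described. From each of the other pathway lists, called genes were named, at most 4 per comparison by the smallest p with the block. The genes most like each member by Pearson's r over the libraries (at most 3), and Mki67 and Cdkn1a as reference, were named as well. Mdm2, Trp53inp1 and genes that share exons with a member were added after their values were seen. The members, the gene lists and the tests were chosen with earlier results of these data known. The study calls the libraries biological repeats, and their labels do not name the isolation each came from, so p-values measure the spread between these libraries. Some genes that met the naming rule are not reported here.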

Additional observations from a re-analysis of the deposited data

Results flagged for a closer look

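In 3 of the 60 sets of 4 libraries of a member, 1 library lay far from the others, where chance gives about 1 in 20. *Neil3* stood at 4.75 CPM in library 4 of mock-irradiated cells at 6 h, against 5.62 to 5.79 CPM in the others. *Neil3* stood at 8.21 CPM in library 3 of 0.1 Gy at 6 h, against 4.83 to 5.05 CPM in the others. *Parp1* stood at 49.7 CPM in library 2 of 2 Gy at 6 h, against 83.4 to 89.6 CPM, and was low in the libraries of that number in every condition.

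The interaction of 2 Gy and time for *Neil3* was -1.28 on the log2 scale in edgeR with the replicate block (adjusted p = 0.0388). It did not pass without the block (adjusted p = 0.819), with the block and the GC and length correction (-0.91, 0.091), or with the block without number 1 (0.12), 2 (0.286) or 4 (0.0994). After 0.1 Gy *Xrcc1* was lower in 4 of 4 pairs at 6 h (log2 fold change -0.21) and higher in 4 of 4 pairs at 24 h (0.24), the ratio of pair 3 at 24 h being close to 1. The difference between these times was not tested.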

How the results depend on the processing

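The number of members called moved with the replicate block and the test. Without the block edgeR called 0 members 24 h after 2 Gy, and with the replicate block 1 (*Neil3*), among 2100 of 15892 genes. *Neil3* alone was also called with the block and the GC and length correction (564 of 15855 genes). The same was so with the block and a minimum log2 fold change of 1 (129 of 15892 genes). DESeq2's Wald test called it with the block (2321 of 13639 genes) and without (103 of 14177), as did edgeR with all 24 libraries in one fit (108 of 17353). Leaving out libraries gave 0 to 4, the 4 being the blocked fit without replicate 3, which called 5291 of 15986 genes. For 2 Gy against 0 Gy and against 0.1 Gy at 6 h, the block with the GC and length correction called 1 member (*Ung*) in place of 0. These fits called 115 of 15959 and 110 of 16238 genes. For 2 Gy against 0.1 Gy at 24 h, DESeq2 with the block called 1 (*Neil3*), as it did 110 of 14819 genes. For 0.1 Gy against 0 Gy at 24 h, leaving out libraries gave 0 to 1 (3728 of 16060 genes in the blocked fit without replicate 3). In the interaction the replicate block called 1 member, also with a minimum log2 fold change of 1, DESeq2 with the block 2 (*Neil3* and *Neil1*, among 2469 of 13336 genes), and leaving out libraries gave 0 to 3 (3951 of 16871 genes in the blocked fit without replicate 3). Between 24 h and 6 h without irradiation, the block with the correction called 2 (*Apex1* and *Lig3*, among 4219 of 15850 genes), a minimum log2 fold change of 1 gave 0 with or without the block, and leaving out libraries gave 0 to 3 (7192 of 15840 genes in the blocked fit without replicate 3). There the pairing was not taken as given, since the libraries of number 3 had an r of 0.0887, while numbers 1, 2 and 4 correlated best with their own number (0.378 to 0.8), and the block alone called *Apex1* as well (adjusted p = 0.0179). The cause of these moves was not tested. DESeq2 with the block, the block with a minimum fold change, and the pathway lists with a number left out were chosen after seeing the data.

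None of the 16 member values followed one by one changed sign in any setting. Of the other 64, 40 changed sign in at least 1 setting, none with a log2 fold change over 0.22 in size in the fit without the block. *Neil3* 24 h after 2 Gy ranged from -1.74 to -1.20 and *Ung* 6 h after 2 Gy from -1.20 to -0.94. Counts of *Neil3* 24 h after 2 Gy were 22 to 72 and those of *Ung* 6 h after 2 Gy 23 to 59, so single libraries of these genes carry a large counting error.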
